A study of Mus musculus with 8 samples.

Results

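The mouse mitochondrial genome encodes 37 genes, and all 37 were found among the 52636 gene identifiers of the count table by their symbols, which start with mt-. They comprise 13 mRNAs, 22 tRNAs and 2 rRNAs. Their expression was compared between WT and DKO S0 cells from fetal livers at embryonic day E12.5. DKO embryos lack both Vps13a and Vps13c, which encode bridge-like lipid transfer proteins of membrane contact sites. All mice were on a C57BL/6J background, and the S0 fraction was sorted as lineage-negative cells without CD71 and Ter119, a gate that holds the earliest erythroid precursors. There were 4 WT and 4 DKO libraries of polyA RNA, and since the labels do not say that each came from a separate embryo, p-values measure the spread between these libraries, which may be partly technical. The breeding that the study describes for DKO embryos, intercrosses of Vps13a+/- Vps13c-/- mice, gives no embryo with a normal Vps13c gene, and the matings behind the libraries labelled wild type are not given in the labels. Mitochondrial DNA is inherited from the mother, and genotype and mother cannot be told apart with these labels.

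Mitochondrial DNA is a small circle with genes on both strands. Each strand is transcribed as a long precursor by the polymerase POLRMT with the factor TFAM, and the tRNAs, which lie between the other genes like punctuation, are cut out by RNase P and ELAC2, releasing the rRNAs and mRNAs. The mRNAs encode core subunits of respiratory complexes I, III and IV and of the ATP synthase, and the rRNAs and tRNAs serve the mitochondrial ribosome that translates them. Erythroid precursors depend on mitochondria for heme synthesis and shed them only late in maturation. Stretches of mitochondrial DNA have also been copied into the nuclear chromosomes, and reads from such a copy can look the same as reads from mitochondria. A gene is called a heavy-strand or light-strand transcript here by the strand it is transcribed from, 28 genes and 9 genes respectively. Whether the counting used strand is not given in the sources used here. Since precursors of both strands run along the genome, a count at any gene may hold reads of the opposite strand. Reads of overlapping genes on opposite strands, such as mt-Nd5 and mt-Nd6, cannot be told apart where they overlap. Comparisons by strand are therefore comparisons by the annotated strand of the gene.

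The libraries held 36981439 to 50886469 counts. Normalized counts of Vps13a were 1825 to 2109 for WT and 607 to 1039 for DKO, and it fell by 1.29 on the log2 scale (edgeR adjusted p = 0.00247). Vps13c was not lower in DKO (583 and 816 normalized counts on average, adjusted p = 0.182), and a count over the whole gene does not check that label. Ddx3y, a Y-linked gene, was between 2911 and 3354 in the WT libraries, 2516 in DKO 3 and between 9.40 and 41.0 in the other DKO libraries, so that sex differed between the groups except for DKO 3. The summed markers of mesenchyme (6 tested, 5 higher in DKO) ranged from 1911 to 5519 normalized counts in WT and from 11933 to 42481 in DKO, and those of heart muscle (4 tested of 6, 4 higher) from 697 to 1094 and from 1610 to 3475. The 4 heart muscle markers that were tested included Myl7 (22.9 ± 20.5 and 298 ± 168 normalized counts). The part of these cells in the mitochondrial values was not tested. The erythroid markers overlapped (49681 to 110160 in WT, 37667 to 127589 in DKO, 12 tested, 2 higher), and 4 of 7 progenitor markers were lower, with sums of 37895 to 46022 and 19870 to 25692. The hepatoblast markers had larger sums, 697874 to 947049 in WT and 207602 to 802599 in DKO, which overlapped. Of the 10 hepatoblast markers edgeR called 0, and DESeq2 called 4 lower. The part of hepatoblasts in the mitochondrial values was not tested either. Beside these counts of called markers stand 10.7% of all genes called higher and 10.8% called lower. Since libraries were made from a normalized amount of RNA, fewer cells of a type and less RNA per cell cannot be told apart.

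The sequences of the genes on which the comparison turned are given here from the GENCODE transcripts of GRCm38, 5′ to 3′. The first pair shows the start of mt-Nd3, a complex I subunit gene (ENSMUSG00000064360.1), at chrM:9459-9518 on the plus strand, and the start of Gm28438, its annotated pseudogene on chromosome 1, at chr1:24613060-24613119 on the minus strand. The capital marks position 3, counted from the 5′ end of the gene, where the copy carries the substitution T3C. It lies at position 9461 of the mitochondrial genome.
mt-Nd3: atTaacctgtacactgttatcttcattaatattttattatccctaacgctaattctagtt
Gm28438: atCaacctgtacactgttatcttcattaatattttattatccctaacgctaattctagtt
Over all 345 aligned bases of the pair (99.7% identity) this was the only difference. The tRNA genes on either side of mt-Nd3 are shown next, with the anticodon in capitals, because they changed together with it. They are mt-Tg for glycine at chrM:9391-9458 and mt-Tr for arginine at chrM:9808-9875, both on the plus strand.
mt-Tg: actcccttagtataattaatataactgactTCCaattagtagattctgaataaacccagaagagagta
mt-Tr: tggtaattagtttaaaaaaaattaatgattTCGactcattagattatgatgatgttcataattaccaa
The cluster between mt-Nd4 and mt-Nd5, which had the highest fold changes of all members, holds mt-Th for histidine (chrM:11546-11612), mt-Ts2 for serine (chrM:11613-11671) and mt-Tl2 for leucine (chrM:11671-11741), all on the plus strand.
mt-Th: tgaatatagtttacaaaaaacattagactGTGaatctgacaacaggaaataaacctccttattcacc
mt-Ts2: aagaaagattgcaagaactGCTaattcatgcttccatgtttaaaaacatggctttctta
mt-Tl2: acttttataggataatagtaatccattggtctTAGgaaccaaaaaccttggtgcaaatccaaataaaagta

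Most mitochondrially encoded genes were higher in DKO, and 3 neighbouring genes were lower by the counts assigned to them. For mt-Nd3, which is among these 3, the sum with its nuclear copy was higher in DKO, as described below. Of the 35 members that passed the filter on low counts, 27 were higher, 3 were lower and 5 did not pass an adjusted p of 0.05 (edgeR). Over all 17378 genes tested 10.7% were higher and 10.8% lower, 21.6% in all, with a median log2 fold change of 0.03. The other members, mt-Td for aspartate and mt-Tk for lysine, were removed by the filter. Between the genotypes 28 members did not overlap with DKO higher and 3 with DKO lower, against 13.5% and 14.6% of all genes. A log2 fold change above 1 was reached by 11 of the called members and one below -1 by 3, against 6.19% and 2.43% of all genes. The 5 members that were not called were mt-Tf (adjusted p = 0.0776), mt-Rnr1 (0.0614), mt-Ts1 (0.402), mt-Atp8 (0.0914) and mt-Nd4l (0.820). Relative to the summed counts of the 13 mRNAs instead of all genes, which places the mRNA class near 0 by construction, 9 members were higher.

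**Figure D1:**
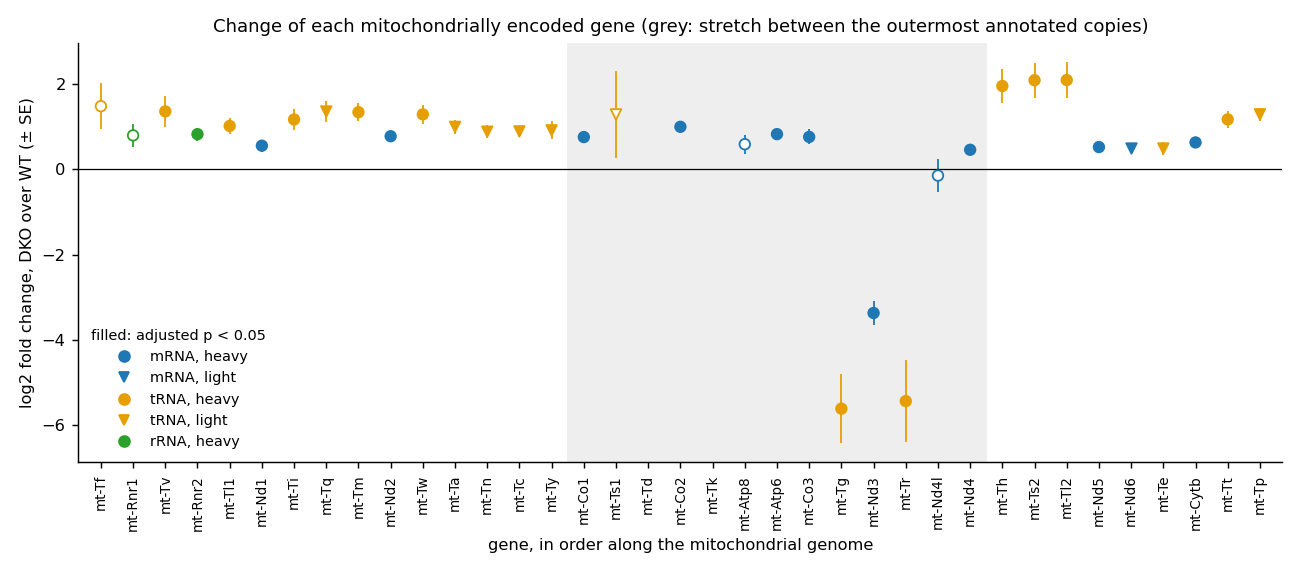
Log2 fold change of DKO over WT with its standard error (vertical axis) for the 35 tested members in the order of the mitochondrial genome (horizontal axis); colours are classes, circles and triangles are heavy- and light-strand transcripts, filled symbols have an adjusted p under 0.05, and mt-Td and mt-Tk, not tested, have no symbol. Inside the grey stretch, which lies between the outermost annotated copies on chromosome 1, mt-Tg, mt-Nd3 and mt-Tr lie between -5.61 and -3.36. With the counts of its copy Gm28438 added, mt-Nd3 has a log2 fold change of 1.11. The 24 members outside the grey lie between 0.49 and 2.09 (relative to the summed mRNAs, mt-Nd1, mt-Nd5, mt-Nd6 and mt-Te fall below 0 there, none at an adjusted p under 0.05).

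By the counts assigned to it, mt-Nd3 was the only mRNA called lower in DKO. With the counts of its nuclear copy Gm28438 added, the log2 fold change was 1.11 (edgeR adjusted p = 0.00507), as described below. The deposited counts of mt-Nd3 were 240, 364, 395 and 336 in WT and 30, 33, 20 and 21 in DKO. No DKO library reached the lowest WT library. After normalization the means were 300 ± 38.5 and 29.1 ± 7.41 (SD, n = 4 each), and the log2 fold change was -3.36 (SE 0.29, edgeR adjusted p = 0.000346). The exact permutation test, two-sided, gave p = 0.0286, the smallest that 4 against 4 libraries allow. This p restates that the groups did not overlap, as for 14.6% of all genes with DKO lower. With any 1 library left out the log2 fold change lay between -3.53 and -3.25.

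The tRNA genes that flank mt-Nd3 behaved in the same direction. mt-Tg had counts of 33, 41, 41 and 29 in WT and of 1, 0, 0 and 1 in DKO. mt-Tr had counts of 20, 35, 42 and 32 in WT and of 0, 0, 0 and 2 in DKO. Neither gene overlapped between the genotypes, and both were called lower (edgeR adjusted p = 0.00321 and 0.0064). Summed over the DKO libraries only 2 counts were left of each, which is 1.71% of the WT level for mt-Tg (95% exact interval 0.205% to 6.28%) and 1.91% for mt-Tr (0.228% to 7.03%). The same summed measure was 9.58% for mt-Nd3 (7.77% to 11.7%). These intervals cover counting error only. A requirement of at least 10 counts in every library removed both tRNAs, leaving mt-Nd3 as the only member called lower.

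The nuclear copy of mt-Nd3 moved the other way. Gm28438 (ENSMUSG00000101939, minus strand, chr1:24612775-24613119) had 19, 21, 21 and 7 counts in WT and 599, 713, 473 and 560 in DKO. The genotypes did not overlap, and the log2 fold change was 5.39 (SE 0.37, edgeR adjusted p = 0.000105). Of the counts of the pair, 92.7% to 97.96% were assigned to mt-Nd3 in the WT libraries and 3.61% to 4.77% in the DKO libraries. The exact 95% intervals of these shares ran from 88.8% to 99.2% in WT and from 2.25% to 6.74% in DKO, and they too cover counting error only. The sum of mt-Nd3 and Gm28438 was 259, 385, 416 and 343 counts in WT and 629, 746, 493 and 581 in DKO. Each DKO sum was above each WT sum. When the copy was added to mt-Nd3, which was tried after the data were seen, the normalized mean of the pair was 316 ± 39.0 for WT and 684 ± 125 for DKO, and the fitted difference was 1.11 on the log2 scale (edgeR adjusted p = 0.00507) in place of -3.36. No gene is annotated at the places on chromosome 1 that correspond to mt-Tg and mt-Tr, so that counts there were not available. The letters that the libraries carry at position 9461 cannot be read from gene counts, and their part in the assignment was not tested.

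**Figure D2:**
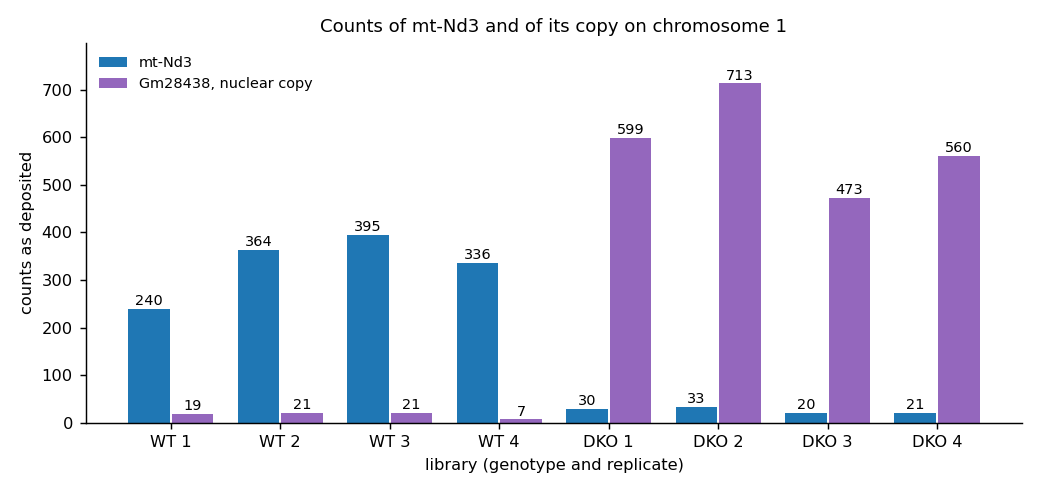
Deposited counts (vertical axis) of mt-Nd3 and of its nuclear copy Gm28438 in each of the 8 libraries (horizontal axis), with the count written over each bar. mt-Nd3 holds 240 to 395 counts in WT and 20 to 33 in DKO, whereas Gm28438 holds 7 to 21 in WT and 473 to 713 in DKO.

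Gm28438 is not the only annotated copy on chromosome 1. It and 6 others, 7 pseudogenes in all, lie within 4663 bases (chr1:24611535-24616197), and the outer ends of their alignments are 4653 bases apart on the mitochondrial genome (chrM:6390-11042), from inside mt-Co1 to inside mt-Nd4. This stretch, called the copied stretch here, contains 11 members whole (mt-Ts1, mt-Td, mt-Co2, mt-Tk, mt-Atp8, mt-Atp6, mt-Co3, mt-Tg, mt-Nd3, mt-Tr and mt-Nd4l) and mt-Co1 and mt-Nd4 in part. Only mRNAs have an annotated copy in it, and for mt-Atp8 and the 5 tRNAs no copy was found among annotated transcripts, which says nothing of unannotated sequence. The copies of mt-Co2 (Gm28661), mt-Atp6 (Gm10925), mt-Co3 (Gm28437), mt-Nd4l (Gm10222) and mt-Nd4 (Gm28439) had no difference over their aligned bases, and that of mt-Co1 (Gm29216) had 1, the substitution A1066T at position 6393 of the mitochondrial genome. The authors removed alignments of mapping quality under 20.

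For these other pairs the share of counts assigned to the mitochondrial gene did not separate the genotypes in the way seen for mt-Nd3. It was 17.7% to 59.5% in WT and 20.1% to 53.6% in DKO for mt-Co2. For mt-Atp6 it was 28.7% to 47.1% and 15.9% to 33.9%, and for mt-Co3 29.4% to 42.7% and 24.7% to 39.3%. For mt-Nd4l it was 38.5% to 61.9% and 23.6% to 47.8%. All of these ranges overlapped. mt-Co1 and mt-Nd4, which are only partly copied, held over 98% in every library, with overlapping ranges for mt-Co1 (99.03% to 99.58% in WT and 98.79% to 99.67% in DKO). For mt-Nd4 the ranges were narrowly apart, with 99.532% as the lowest share in WT and 99.529% as the highest in DKO. Of the copies other than Gm28438, those of mt-Atp6 (Gm10925, log2 fold change 1.60, edgeR adjusted p = 0.0212), mt-Co3 (Gm28437, 1.07, adjusted p = 0.00681) and mt-Nd4 (Gm28439, 1.34, adjusted p = 0.00885) were called higher in DKO. Libraries of the same genotype differed widely in how the fully copied pairs were split, so the counts of mt-Co2, mt-Atp6, mt-Co3 and mt-Nd4l are uncertain.

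The level per kilobase followed the same border. In WT the mRNAs outside or only partly inside the stretch ran from mt-Cytb, of complex III, at 157774 normalized counts per kilobase through mt-Nd1 (101707), mt-Co1 (61670), mt-Nd6 (34836), mt-Nd4 (34243) and mt-Nd2 (28490) to mt-Nd5 at 16847. mt-Nd6 and mt-Nd4 differed by less than the spread of mt-Nd6 (SD 3901). The 6 mRNAs wholly inside it were all below these, at 1869 for mt-Atp8, 1443 for mt-Atp6, 907 for mt-Co3, 893 for mt-Co2, 863 for mt-Nd3 and 331 for mt-Nd4l. mt-Co3, mt-Co2 and mt-Nd3 lay within their spread of each other in WT (SD 163, 95.4 and 111). In DKO the order changed in 3 places, as mt-Nd3, at 83.5, lay below mt-Nd4l, at 299.8, mt-Nd2 (48848) above mt-Nd4 (47102) and mt-Co2 (1784) above mt-Co3 (1537). Of the 24 members outside the stretch, 22 were called, all of them higher, and the median over the 24 was 1.01 on the log2 scale. Of the 9 tested inside, 3 were higher, 3 lower and 3 not called. Over all genes tested 10.7% were higher and 10.8% lower.

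Among the mRNAs, 10 of 13 were higher in DKO, against 10.7% of all genes. The 5 wholly outside the copied stretch were all called, with a median of 0.56 on the log2 scale. Relative to the summed mRNAs, however, mt-Nd1, mt-Nd5 and mt-Nd6 of these were below 0, none at an adjusted p under 0.05. mt-Cytb, cytochrome b of complex III, had normalized counts of 186460, 170100, 172740 and 192670 in WT and of 259300, 245350, 326100 and 288240 in DKO. The groups did not overlap, and mt-Cytb rose by 0.63 on the log2 scale (SE 0.10, edgeR adjusted p = 0.00442). mt-Nd2 of complex I had 27991, 27974, 35206 and 27120 in WT and 51568, 51412, 48830 and 51005 in DKO, again with no overlap and with a log2 fold change of 0.78 (SE 0.09, adjusted p = 0.00187). mt-Nd1, the first mRNA of the heavy strand, had 95516 to 101250 in WT and 106290, 129450, 157390 and 179310 in DKO. It was higher in every DKO library, by 0.56 on the log2 scale (adjusted p = 0.0244), but the adjusted p rose as high as 0.0749 when a library was left out.

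The complex I genes mt-Nd5 and mt-Nd6, which overlap by 14 bases on opposite strands, rose together. Normalized counts of mt-Nd5 averaged 30729 ± 2060 for WT and 44166 ± 3416 for DKO (log2 fold change 0.52, adjusted p = 0.00454). mt-Nd6, the only light-strand mRNA, had 18080 ± 2024 and 25516 ± 1831 (log2 fold change 0.50, adjusted p = 0.00844). Both rises, like those of mt-Nd1 and mt-Nd4, turned negative relative to the summed mRNAs, none at an adjusted p under 0.05. mt-Co1, the catalytic subunit of complex IV, was the least variable member in WT, with normalized counts of 95096, 94451, 95619 and 95954 against 181760, 145550, 158280 and 158960 in DKO. It rose by 0.76 on the log2 scale (SE 0.08, adjusted p = 0.00115). mt-Nd4 of complex I had 47187 ± 3686 and 64907 ± 4090 (log2 fold change 0.46, adjusted p = 0.00653), the smallest rise of a called mRNA.

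The mRNAs inside the copied stretch gave mixed calls. mt-Co2 and mt-Co3, the other mitochondrial subunits of complex IV, rose by 0.998 (adjusted p = 0.00346) and 0.76 (adjusted p = 0.0158) on the log2 scale. mt-Atp6, a subunit of the proton channel of the ATP synthase, averaged 982 ± 173 (WT) and 1743 ± 198 (DKO) normalized counts (log2 fold change 0.83, adjusted p = 0.00604). mt-Atp8, which overlaps mt-Atp6 by 43 bases, overlapped between the genotypes (290 to 525 and 512 to 739, log2 fold change 0.59). mt-Nd4l of complex I had 70.2, 145, 73.8 and 105 in WT and 76.7, 124, 97.7 and 57.5 in DKO, with a log2 fold change of -0.14 whose sign changed without WT 2 or DKO 4. With the chromosome 1 copies added, the log2 fold changes were 1.07 for mt-Co2 (adjusted p = 0.0918, no longer called), 1.37 for mt-Atp6 (0.0147), 0.96 for mt-Co3 (0.00368) and 0.45 for mt-Nd4l (0.317). The sum for mt-Atp6 was led by DKO 3, with 10405 counts against 4294 to 5818 in the other DKO libraries.

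**Figure D3:**
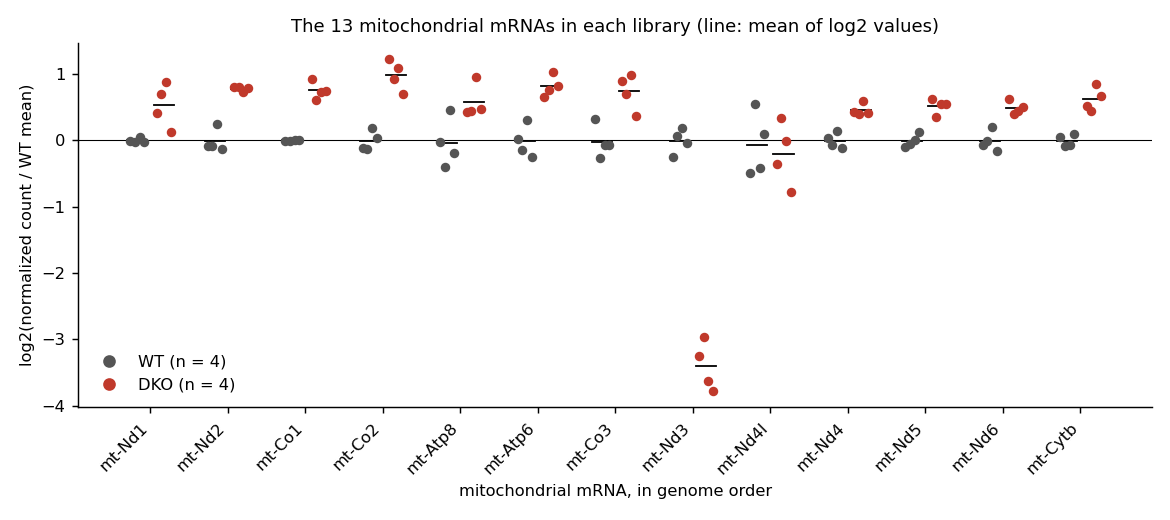
Each of the 13 mRNAs in genome order (horizontal axis), with the normalized count of every library relative to the WT mean on a log2 scale (vertical axis); grey points are WT, red points DKO, 4 libraries each, and lines are means of the log2 values. The DKO points lie above the WT points for 10 mRNAs, overlap them for mt-Atp8 and mt-Nd4l and lie far below for mt-Nd3. Counts of the nuclear copies are not added. Relative to the summed mRNAs the fitted log2 fold changes of mt-Nd1, mt-Atp8, mt-Nd4, mt-Nd5 and mt-Nd6 turn negative, none at an adjusted p under 0.05.

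As a share of the library, the members took 1.57%, 1.57%, 1.63% and 1.74% of all counts in WT and 2.97%, 2.56%, 2.65% and 2.33% in DKO. All DKO libraries were above all WT libraries, with means of 1.63% ± 0.0806 and 2.63% ± 0.265. The 13 mRNAs held 1.14% ± 0.0150 in WT and 1.76% ± 0.135 in DKO, the rRNAs 0.477% ± 0.0753 and 0.847% ± 0.205, and the tRNAs 0.0104% ± 0.00129 and 0.0211% ± 0.00217. mt-Rnr2, mt-Cytb, mt-Co1 and mt-Nd1 together made up 78.4% of the members' counts in WT and 79.5% in DKO. Of the mRNA counts mt-Cytb took 36.0% ± 1.90 in WT and 36.1% ± 2.72 in DKO. Within the mRNA total only 2 genes separated the genotypes, mt-Nd3 (0.0599% and 0.00379%) and mt-Nd4 (9.40% ± 0.647 and 8.39% ± 0.150), both lower in DKO. For mt-Nd4 the separation was narrow, with the lowest WT library at 8.57% and the highest DKO library at 8.55%.

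**Figure D4:**
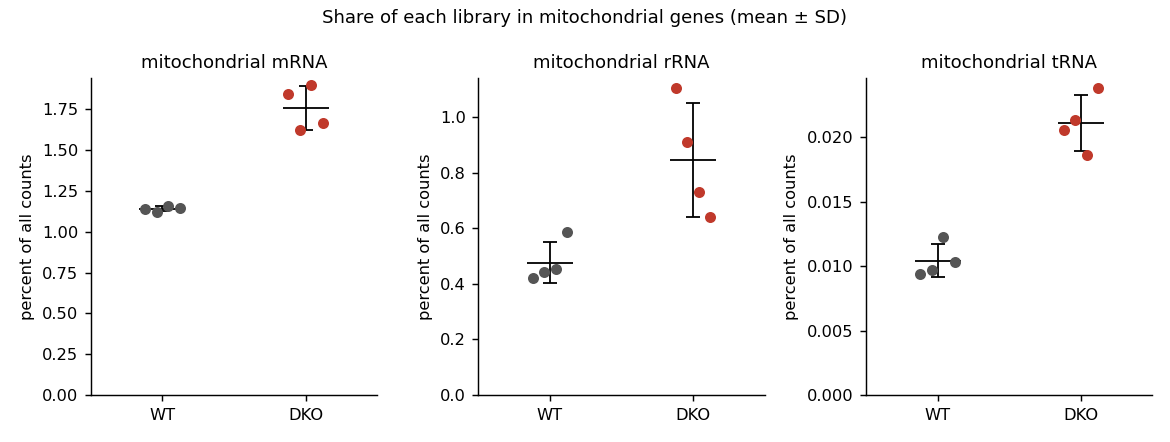
Share of all counts of a library, in percent (vertical axes, each starting at 0), held by mitochondrial mRNAs, rRNAs and tRNAs in WT and DKO (horizontal axis); points are libraries, bars are means with SD, n = 4 each. In each class all DKO libraries lie above all WT libraries, on average 1.76% against 1.14% for mRNAs.

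The rRNAs had higher means in DKO, and 1 of them passed the test. mt-Rnr2, the rRNA of the large ribosomal subunit, had normalized counts of 171190, 173240, 179190 and 229630 in WT and of 403940, 371260, 300630 and 258870 in DKO. The groups did not overlap, and the log2 fold change was 0.83 (SE 0.15, edgeR adjusted p = 0.00749). mt-Rnr1, the rRNA of the small subunit, ranged from 14674 to 30348 in WT and from 26591 to 54341 in DKO, and these ranges overlapped (log2 fold change 0.80, SE 0.27, adjusted p = 0.0614). It passed the threshold with DESeq2 (adjusted p = 0.0164) and with upper-quartile scaling (0.0398).

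Among the tRNAs, 16 of the 20 tested were higher, against 10.7% of all genes. Of those, 11 rose by more than 1 on the log2 scale, a rise that 6.19% of all genes showed. The class median stayed positive, at 0.62, relative to the mRNAs. A count at a tRNA gene does not tell the mature tRNA from a precursor that contains it. The highest fold changes belonged to the cluster between mt-Nd4 and mt-Nd5. mt-Th had normalized counts of 15.7, 17.2, 14.8 and 15.7 in WT and of 52.5, 66.3, 50.1 and 78.4 in DKO (log2 fold change 1.95, SE 0.40, edgeR adjusted p = 0.0106). mt-Ts2 had 15.7, 21.5, 26.9 and 14.0 in WT and 73.5, 95.3, 62.3 and 103 in DKO (log2 fold change 2.09, adjusted p = 0.00895). mt-Tl2 had 16.8, 32.7, 30.4 and 15.7 in WT and 75.7, 120, 76.9 and 138 in DKO (log2 fold change 2.09, adjusted p = 0.0107). In none of these tRNAs did the genotypes overlap, and DKO 2 and DKO 4 had the highest values in all of them.

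The cluster rose more than the mRNAs beside it. There were 2992 mt-Nd4 counts for each mt-Th count in WT (2625 to 3509) and 1092 in DKO (804 to 1419). For mt-Ts2 there were 2551 mt-Nd4 counts in WT and 816 in DKO, and for mt-Tl2 there were 1443 mt-Nd5 counts in WT and 467 in DKO. The 3 ratios did not overlap between the genotypes, and they need no scaling between libraries. These tRNAs stood out by their fold changes in the same counts, so the ratios are no separate evidence. In WT the ratios rest on 15 to 38 deposited counts per tRNA and library. The next tRNA on the genome, mt-Te for glutamate, a light-strand transcript beside mt-Nd6, showed no such shift, with 22.1 mt-Nd6 counts per mt-Te count in WT (20.6 to 25.0) and 22.1 in DKO (19.9 to 26.2). Its own log2 fold change was 0.49 (adjusted p = 0.036), the smallest of a called tRNA.

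**Figure D5:**
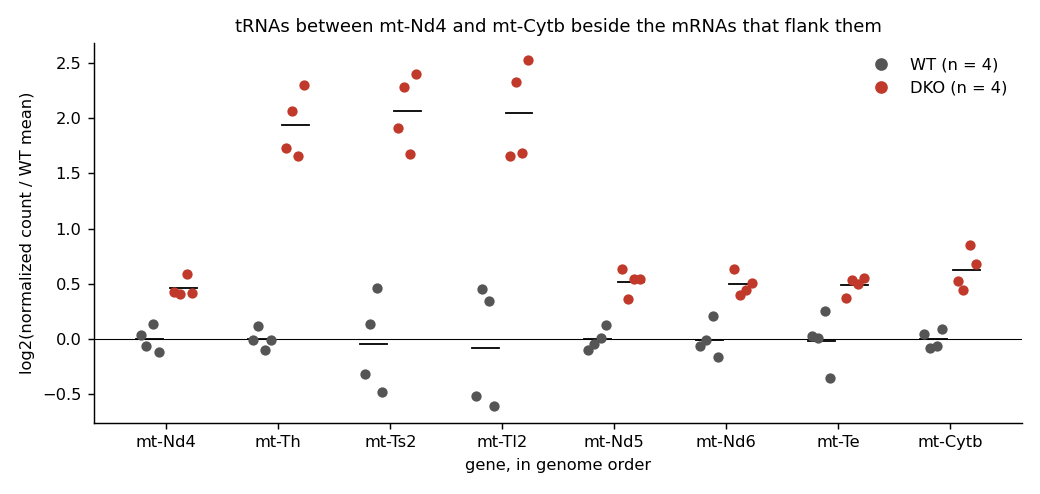
Normalized counts relative to the WT mean on a log2 scale (vertical axis) for the genes from mt-Nd4 to mt-Cytb in genome order (horizontal axis); grey points are WT, red points DKO, 4 libraries each, and lines are means of the log2 values. mt-Th, mt-Ts2 and mt-Tl2 rise by 1.95 to 2.09, whereas the flanking mRNAs and mt-Te rise by 0.46 to 0.63. Relative to the summed mRNAs the sign of mt-Nd4, mt-Nd5, mt-Nd6 and mt-Te turns, for none of them at an adjusted p under 0.05.

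Of the other heavy-strand tRNAs outside the copied stretch, mt-Tv for valine lies between the rRNAs and rose from 42.7 ± 13.4 to 110 ± 23.9 normalized counts (log2 fold change 1.36, adjusted p = 0.0286). mt-Tl1, the second leucine tRNA, follows mt-Rnr2 and rose by 1.02 (adjusted p = 0.00759). mt-Ti for isoleucine, mt-Tm for methionine and mt-Tw for tryptophan, which surround mt-Nd2, rose by 1.17, 1.34 and 1.29 (adjusted p = 0.0122, 0.00446 and 0.00634). mt-Tt for threonine, next to mt-Cytb, rose by 1.17 (adjusted p = 0.0053). mt-Tf for phenylalanine, the first gene of the heavy strand, had 8.38, 12.05, 19.1 and 33.2 in WT and 47.3, 54.6, 67.1 and 35.5 in DKO. These values did not overlap, but their spread within each genotype was wide, and mt-Tf was not called (log2 fold change 1.48, SE 0.54). Against the mRNA or rRNA beside them, mt-Tv, mt-Tl1, mt-Ti and mt-Tt overlapped between the genotypes, whereas mt-Tw did not (235 mt-Nd2 counts per mt-Tw count in WT and 162 in DKO).

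The light-strand tRNAs rose too. In the run of mt-Ta for alanine, mt-Tn for asparagine, mt-Tc for cysteine and mt-Ty for tyrosine, whose genes follow each other between mt-Tw and mt-Co1, the log2 fold changes lay close together at 0.997, 0.88, 0.89 and 0.92 (adjusted p from 0.00369 to 0.0147). mt-Tc, for example, reached normalized counts of 429, 441, 454 and 465 in WT and 857, 822, 725 and 916 in DKO. DKO 3 was the lowest DKO library for each of the 4 genes but still above every WT library. mt-Tq for glutamine rose by 1.36 (adjusted p = 0.00582), and mt-Tp for proline, the last gene before the control region, by 1.29 (546 ± 82.0 and 1335 ± 209 normalized counts, adjusted p = 0.00207). Outside the copied stretch the median was 1.35 for 10 heavy-strand tRNAs and 0.92 for 7 light-strand tRNAs.

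By strand, 19 of 26 tested heavy-strand transcripts were higher, 3 lower and 4 not called, against 10.7% of all genes higher and 10.8% lower. The median of the heavy-strand transcripts was 0.81 on the log2 scale. These groups follow the annotated strand, and the counts may hold reads of either strand. Of the 9 light-strand transcripts 8 were higher, with a median of 0.92, and the remaining one was mt-Ts1, which was not called. The heavy-strand members that were lower all lay in the copied stretch, in which the only light-strand gene is mt-Ts1. Within libraries the log2 ratio of mt-Nd6 to mt-Nd5 was -0.77 ± 0.205 in WT and -0.79 ± 0.0610 in DKO. The log2 ratio of mt-Rnr2 to mt-Rnr1 was 3.19 ± 0.280 and 3.21 ± 0.218. That of mt-Cytb to mt-Nd1, the last and the first mRNA of the heavy strand, was 0.89 ± 0.111 and 0.99 ± 0.337. None of the 3 ratios separated the genotypes (exact permutation tests, two-sided, p = 0.8, 0.914 and 0.686, adjusted p = 0.914 for each), and the differences, -0.02, 0.02 and 0.10, were smaller than the larger SD of their pair.

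The serine tRNA mt-Ts1, on the minus strand at chrM:6870-6938 inside the copied stretch, split the libraries without regard to genotype. Its sequence is shown with the anticodon in capitals because its counts fell into separate levels.
mt-Ts1: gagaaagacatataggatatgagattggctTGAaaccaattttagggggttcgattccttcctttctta
The counts were 39, 50, 441 and 33 in WT and 63, 528, 45 and 457 in DKO. WT 3, DKO 2 and DKO 4 were at 441 to 528 and the other libraries at 33 to 63. The neighbour mt-Td, on the plus strand, had 1, 1, 6 and 1 counts in WT and 1, 10, 1 and 7 in DKO, and the same 3 libraries held more than 1 count. mt-Tk, on the other side of mt-Co2, had 1, 0, 0 and 0 counts in WT and 4, 1, 4 and 0 in DKO, with no such pattern.

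Other classes of short or non-polyadenylated RNA were looked at beside the tRNAs. Of 62 genes of the histone clusters 45 were called higher in DKO, of 24 snRNA genes 16, and of 53 snoRNA genes 12, against 10.7% of all genes. Relative to WT, the per-library median in DKO was 1.53 to 1.75 on the log2 scale for the histone genes, 2.35 to 2.68 for the snRNA genes, 0.62 to 1.06 for the snoRNA genes and 1.03 to 1.26 for the tested mitochondrial tRNAs. Their part in the tRNA values was not tested.

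Of 11 nuclear genes for mitochondrial transcription 1 was called by edgeR, and by DESeq2 as well, and it was lower in DKO, a share near the 10.8% of all genes. The called gene was Polrmt, the mitochondrial RNA polymerase (2146 ± 170 and 1667 ± 162 normalized counts, log2 fold change -0.36, adjusted p = 0.0329). Tfam, which packages mitochondrial DNA and starts its transcription, had 4245 ± 120 and 4343 ± 368 (log2 fold change 0.03, adjusted p = 0.809). Of 26 RNA processing genes 6 were called, all of them lower, against 10.8% of all genes, and the median was -0.20. They included 1110008L16Rik, the nuclease subunit of mitochondrial RNase P, which fell by 0.70 (adjusted p = 0.00531), and Fastkd5, which is needed for mRNA ends that no tRNA marks and fell by 0.96 (adjusted p = 0.0118). Ptcd3, of the mitochondrial ribosome, Fastkd2 and the tRNA-modifying enzyme Mto1 fell by 0.43, 0.42 and 0.44 (adjusted p = 0.0182, 0.0218 and 0.0272). Mtpap, the mitochondrial poly(A) polymerase, had 2524 ± 135 and 2102 ± 408 (log2 fold change -0.26, adjusted p = 0.192).

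Of 8 genes of RNA stability and decay 2 were higher with edgeR, against 10.7% of all genes, and DESeq2 called 2 higher and 2 lower. Slirp, the partner of Lrpprc in holding mitochondrial mRNAs, rose from 5403 ± 370 to 7353 ± 693 normalized counts (log2 fold change 0.44, adjusted p = 0.0106), and Grsf1, of the RNA granules, rose by 0.37 (adjusted p = 0.0311). Lrpprc itself had 5798 ± 344 and 4708 ± 521 (log2 fold change -0.30, adjusted p = 0.0505). The degradosome subunits Pnpt1 and Supv3l1 had log2 fold changes of -0.17 and 0.06 (adjusted p = 0.35 and 0.738). Of 11 genes that maintain mitochondrial DNA 1 was called with edgeR, a share near the 10.7% of all genes, and DESeq2 called 1 higher and 1 lower. The gene called with edgeR was Ssbp1, the single-strand binding protein, which rose by 0.29 (adjusted p = 0.0432). Of 17 mitochondrial tRNA synthetase genes edgeR called 1 higher and 1 lower, against 10.7% and 10.8% of all genes. DESeq2 called 2 higher and 1 lower, and the median log2 fold change was -0.004. The gene called higher with edgeR, Lars2 for leucine, rose from 55127 ± 3123 to 197577 ± 29747 normalized counts (log2 fold change 1.84, SE 0.11, adjusted p = 5.06e-05). In WT the next synthetase in level, Tars2, had 6024.

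Among the nuclear subunits of the complexes more genes were higher than lower, against 10.7% and 10.8% of all genes, with medians between 0.13 and 0.34 on the log2 scale. For complex I 19 of 36 were higher and 1 lower, and the log2 fold changes had a median of 0.34, led by Ndufa13, Ndufs6, Ndufv3, Ndufa1 and Ndufa2 at 0.63, 0.57, 0.57, 0.48 and 0.44. Ndufs1 was the one that fell, by 0.36 (adjusted p = 0.0199). For complex III 3 of 9 were higher (Uqcr11, Uqcrq and Uqcr10 at 0.53, 0.60 and 0.42) and the median was 0.13. For complex IV 5 of 11 were higher (Cox5b, Cox4i1, Cox7c, Cox7a2 and Cox6c at 0.46, 0.35, 0.36, 0.31 and 0.30) and the median was 0.28. For the ATP synthase 8 of 16 were higher, led by Atpif1, an inhibitor of its reverse activity, at 0.57, with Atp5k, Atp5j, Atp5o and Atp5j2 at 0.47, 0.34, 0.34 and 0.34, and the median was 0.26.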

How the data were processed

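RNAseq counts of 4 WT and 4 DKO libraries were analysed; each was given its genotype and number by its label. The authors trimmed 150-bp paired-end reads with fastp 0.21.0, mapped them to mm10 with HISAT2 2.2.1, removed alignments of quality under 20 and deposited whole-number gene counts from StringTie 1.3.3b and prepDE, limited to a GENCODE annotation. These counts were neither normalized nor pooled. Of 52636 identifiers, 52403 matched a symbol in the GENCODE M21 annotation of GRCm38 used here.

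Counts were fitted across all genes in R 4.3.3 with edgeR 4.0.16 (TMM, filterByExpr, robust quasi-likelihood test, Benjamini-Hochberg adjustment); an adjusted p under 0.05 was called. Normalized counts are counts divided by effective library size, times the mean of these sizes. DESeq2 1.42.0, other scalings and filters, a replicate block and fits without each library were alternatives. Single genes and ratios had exact two-sided permutation tests (scipy 1.17.1). Copies were sought with blastn 2.17.0 (at least 90% identity over 50 bases) of mitochondrial against nuclear transcripts of GENCODE, since no genome sequence was used here; the planned search of whole chromosomes was not run. The 7 copies on chromosome 1, with identities of 99.7% to 100%, defined the copied stretch, and coordinates are those of GRCm38. Same-numbered libraries did not deviate together (correlations from -0.0893 to 0.0433), so numbers were not treated as pairs. The numbers are those of the sample titles. The library names number some DKO libraries otherwise, and pairing by those names was not checked. The test was also run on simulated counts, whose means and dispersions were taken from the main fit.

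The members and lists were chosen with earlier results of these data known. Named were every mt- gene, at most 5 called genes per nuclear list by smallest p, and Polrmt, Tfam, Lrpprc, Slirp, Pnpt1, Supv3l1 and Mtpap; Tars2 and Ndufs1 and the marker genes named were added after their values were seen. One gene that this rule names is not reported here. Lists were mitochondrial transcription, RNA processing, RNA stability and decay, mtDNA maintenance, tRNA synthetases, nuclear subunits of complexes I, III, IV and V, and markers of cell types and of sex. Of the hepatoblast genes edgeR called 0 of 10, of which 4 were lower at an unadjusted p under 0.05 and 4 with DESeq2. Of the markers not given in the Results, those called lower were 2 of 8 tested macrophage (Cd163 was at 0), 1 of 6 megakaryocyte and 1 of 6 endothelial genes, against 10.8% of all genes. In a list of 6 genes, 1 call is near that share. The hepatoblast sums ranged from 697874 to 947049 normalized counts in WT and from 207602 to 802599 in DKO. Of 5 sex-linked genes Xist was called higher.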

Additional observations from a re-analysis of the deposited data

Results flagged for a closer look

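Of 88 gene and genotype groups of 4 libraries, 9 held a library whose gap to its nearest neighbour exceeded the Dixon critical value of 0.829 of the range; chance gives about 1 in 20 groups. Among the WT libraries these were mt-Rnr2 in WT 4 (229630 normalized counts), mt-Nd2 in WT 3 (35206), mt-Ts1 in WT 3 (383.1), mt-Td in WT 3 (5.21), mt-Tk in WT 1 (1.05) and mt-Tg in WT 4 (25.4). Among the DKO libraries they were mt-Atp8 in DKO 3 (739), mt-Nd4 in DKO 3 (71020) and mt-Tr in DKO 4 (2.09). Those of mt-Td, mt-Tk and mt-Tr rest on 1 to 6 counts. mt-Nd2, mt-Rnr2, mt-Nd4, mt-Tg and mt-Tr did not overlap between the genotypes with these libraries included.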

How the results depend on the processing

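mt-Tg, mt-Nd3 and mt-Tr stayed lower in DKO under every scaling and with each library left out. None of these settings changes how reads were assigned between mt-Nd3 and its copy, so they do not check that assignment. With the copy added, the log2 fold change of mt-Nd3 was 1.11. Library size without TMM, scaling from nuclear genes only and counts divided by 2 changed no call of a tested member, and protein-coding genes only, which held just the mRNAs, changed none of theirs. Without a filter on low counts mt-Tv and mt-Te lost the call. Upper-quartile scaling, which moved the median of all genes to 0.14, called 2492 genes higher and 1242 lower. Scaling to the 13 mRNAs moved that median to -0.59 and called 781 genes higher and 8434 lower, with 9 members higher and class medians of -0.038 (mRNA), 0.62 (tRNA) and 0.20 (rRNA); mt-Nd1 (-0.075), mt-Atp8 (-0.038), mt-Nd4 (-0.16), mt-Nd5 (-0.10), mt-Nd6 (-0.12) and mt-Te (-0.13) changed sign. At least 10 counts in every library left 1 member lower. DESeq2 called 2744 genes higher and 2629 lower, with mt-Tf and mt-Rnr1 among them. Of the values of single members under the alternatives, 610 kept direction and side of the threshold, 47 lost and 7 gained the call, and 11 changed sign.

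The replicate block called 1026 genes higher and 1083 lower, with 23 members higher, mt-Tv, mt-Ty, mt-Th and mt-Te losing the call. With 1 library left out, 858 to 1915 genes were higher (858 without WT 1, 1011 without WT 2, 948 without WT 4) and 898 to 2012 lower (898, 1050 and 957 without them), and the tRNA median ran from 1.09 to 1.296. The ratio differences ran from -0.067 to 0.14 for mt-Rnr2 to mt-Rnr1, from -0.12 to 0.045 for mt-Nd6 to mt-Nd5 and from -0.054 to 0.21 for mt-Cytb to mt-Nd1. mt-Nd4l ran from -0.35 to 0.11, being positive without WT 2 (0.11) or DKO 4 (0.02). mt-Te lost its call without WT 1, 2 or 4 or any of DKO 2 to 4, mt-Nd1 without any WT library or DKO 2, mt-Tv without WT 1, 2 or 4 or DKO 2, mt-Co3 without WT 2 or 4 and mt-Ty without WT 1. mt-Rnr1 gained it without WT 4, DKO 3 or DKO 4, and mt-Atp8 without WT 3.

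Chosen after seeing the data, adding the chromosome 1 copies gave 1.11 for mt-Nd3 and 0.45 for mt-Nd4l, and DKO 3 alone against WT, whose spread was assumed to hold for DKO 3, gave class medians of 0.71 (mRNA) and 0.99 (tRNA), -1.20 for mt-Ts1, 18 members higher and 3 lower. The cause of these changes was not tested. Counts near 0 in mt-Td, mt-Tk and, in DKO, mt-Tg and mt-Tr limit what can be said of them.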

Other observations

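Of 3 copies of mitochondrial genes on chromosome 2, none overlapped between the genotypes, all with the DKO libraries above the WT libraries, as for 13.5% of all genes. Of these copies 1 was called higher, against 10.7% of all genes. Gm13339, which matches 510 bases of mt-Nd2 at 96.7% identity, had normalized counts of 9.42, 8.61, 11.3 and 8.74 in WT and 35.7, 43.0, 46.4 and 57.5 in DKO (log2 fold change 2.25, edgeR adjusted p = 0.00947). Gm13340, a copy of mt-Co1 (97.6%), had 67.8 ± 14.3 and 122 ± 7.70 (log2 fold change 0.85, adjusted p = 0.067), and Gm13341, a copy of mt-Co2 (95.9%), had 21.0 ± 7.05 and 52.4 ± 9.60 (log2 fold change 1.32, adjusted p = 0.0599). Copies of mt-Nd5, mt-Nd6 and mt-Cytb on chromosome 4 (Gm11407, Gm11408 and Gm11410) had at most 3.15 normalized counts in any library.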
